A study of Mus musculus with 8 samples.

Results

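Tnfsf11, Tnfrsf11b and Spp1 encode RANKL, osteoprotegerin and osteopontin, and their transcripts were followed in mouse liver after ischemia-reperfusion injury (IRI). They were chosen by symbol and are 3 of the 84 cytokine and chemokine genes on a quantitative PCR array that also carried 5 housekeeping genes. All 3 were measured in each of 8 liver pools, and Tnfsf11 was at the detection limit of the assay, and so not detected, in 2 of them.

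RANKL is a membrane-bound or secreted ligand of the TNF superfamily. It binds the receptor RANK on myeloid cells and is best known for driving osteoclast formation. Osteoprotegerin is a soluble decoy receptor that binds RANKL, and also the death ligand TRAIL, and keeps each of them from its signalling receptor. Osteopontin is a secreted phosphoprotein of bone matrix that binds integrins and CD44. In liver it is made by biliary epithelium, by activated stellate cells and by macrophages, and it attracts macrophages and neutrophils.

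The array was run on RNA of bulk liver from HFD and ND Rag1-Tbet DKO mice and from HFD and ND Rag1-/- mice, each after IRI and without it (non-IRI). Rag1-/- mice carry no functional Rag1 and lack T and B cells. Rag1-Tbet DKO mice, from a cross of Rag1-/- with Tbx21-/- mice, also lack T-bet, on which type 1 innate lymphoid cells (ILC1s) depend, and keep Eomes+ conventional NK cells. Loss of Rag1 was therefore shared by all 8 groups, and both deletions were germline rather than limited to liver or to lymphoid cells. HFD was a lard-based diet and ND was standard chow, each given for 12 to 15 weeks, although the general methods give 12 weeks for HFD. IRI meant 45 min of partial warm ischemia followed by 24 h of reperfusion, while control mice underwent laparotomy only. Mice of these genotypes were 17 to 19 weeks old when evaluated, although the age of the array mice was not given separately. The methods describe taking the left lobe in the IRI groups but the entire liver in the control groups, and where this applied to the array RNA, lobe and injury cannot be told apart.

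Each condition was 1 pool, made from equal parts of RNA of at least 3 livers, and each gene was read in 1 well per pool. No condition was replicated, so no replicate error is given. No test was run either, since one over all 8 pools would have to take injury, diet and genotype as acting independently, and every difference below is one between 2 pools. The threshold cycle (Ct) is the cycle at which product is detected, so a Ct lower by 1 stands for about 2-fold more transcript. The level of a gene was taken as -ΔCt, the mean Ct of Actb and Hsp90ab1 minus the Ct of the gene, on a log2 scale. A difference between pools is the difference of 2 such levels, and a fold of 2 or more in either direction was counted as a difference in what follows. The standard deviation (SD) of the differences of the 5 housekeeping genes in the same comparison served as a yardstick and ranged between 0.11 and 0.58 on the log2 scale. It is a spread between genes with a Ct of 12.36 to 21.21. It does not measure the error of a single well, nor that of wells at a higher Ct such as those of Tnfsf11. A Ct of 35 was the highest value in the table and was treated as a limit, so that a comparison with 1 pool at 35 gives a bound only (at least, or at most on the log2 scale for a lower level).

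Across the pools, the mean Ct of Actb and Hsp90ab1 lay between 15.04 and 16.46, and 79 of 712 wells were at the limit. Both ends were in ND Rag1-Tbet DKO liver, 15.04 without IRI and 16.46 after it. There the log2 difference after IRI was 2.16 for Tnfsf11 and 1.67 for Spp1 with these references. With raw Ct it was 0.74 and 0.25. The number of array genes at the limit was highest in HFD Rag1-Tbet DKO non-IRI liver (17) and ND Rag1-/- non-IRI liver (15), and it was 6 to 10 in the other pools. The same 2 pools had the highest median Ct over the array genes, 25.7 and 26.21, against 23.93 to 25.18 elsewhere. In the ND Rag1-Tbet DKO non-IRI pool, Cd40lg had a Ct of 11.44 and Il3 a Ct of 9.36, while no other pool was below 31.37 for Cd40lg or below 35 for Il3. The counts of comparisons past 2-fold are therefore also given without that pool. Of the hepatocyte genes on the array, Hc and Thpo were below the limit in all 8 pools. The array held no defining marker of biliary or stellate cells, so the cells in which osteopontin or osteoprotegerin was expressed could not be checked.

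The bases before the annotated start sites of Tnfsf11 and Spp1, the pair that was higher after IRI in most comparisons, are shown to give the reader the sequence at which these genes begin (2 of 3 genes matched the RefSeq promoter table, build GRCm38.p6). In that build Tnfsf11 lies at chr14:78277446-78308043, Tnfrsf11b at chr15:54250619-54278484 and Spp1 at chr5:104435111-104441053. Each stretch is 250 bases long, 5′ to 3′ on the gene's strand, and ends just before the start site. The Tnfsf11 stretch is chr14:78308044-78308293 on the minus strand and the Spp1 stretch is chr5:104434861-104435110 on the plus strand.
Tnfsf11: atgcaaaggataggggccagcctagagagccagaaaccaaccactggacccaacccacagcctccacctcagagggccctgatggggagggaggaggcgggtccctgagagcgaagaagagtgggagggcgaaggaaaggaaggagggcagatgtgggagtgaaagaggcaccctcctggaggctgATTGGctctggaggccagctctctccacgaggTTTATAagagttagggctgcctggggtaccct
Spp1: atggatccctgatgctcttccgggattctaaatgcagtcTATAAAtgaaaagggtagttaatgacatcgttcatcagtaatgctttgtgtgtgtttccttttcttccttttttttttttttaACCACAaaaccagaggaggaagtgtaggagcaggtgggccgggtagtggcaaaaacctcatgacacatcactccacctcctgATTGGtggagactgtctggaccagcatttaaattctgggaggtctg
Capitals mark matches to 4 motifs searched on both strands, of which none overlapped another. They were the CCAAT box (CCAAT), the TATA box (TATAAA), the Runx motif (ACCACA) and the AP-1 motif (TGANTCA). Both stretches held a CCAAT match read as ATTGG, at -64 in Tnfsf11 and -46 in Spp1, counted from the start site to the first base of the match, and 33.8% of 32851 such stretches held one. Tnfsf11 held a TATA match at -32 (read as TTTATA) and Spp1 one at -211, against 12.4% of stretches. A Runx match was found at -128 in Spp1 and none in Tnfsf11, and 14% of stretches held one. Neither stretch held an AP-1 match, which 6.75% of stretches did. These are matches of letters and not measured binding sites.

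Tnfsf11 was scarce in all pools, Tnfrsf11b lay in the upper part of the array and Spp1 was among the transcripts detected earliest. Ranked by Ct from the lowest among the 84 array genes, Spp1 was 2nd to 6th in every pool, Tnfrsf11b 15th to 24th and Tnfsf11 58th to 70th. These ranks compare different assays, whose efficiencies are not known, and are not transcript numbers.

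After IRI, Tnfsf11 was detected in all 4 pools, whereas it was detected in only 2 of the 4 non-IRI pools. In HFD Rag1-Tbet DKO liver its Ct was 29.92 after IRI and 35, the limit, without it. ND Rag1-Tbet DKO liver had a Ct of 29.18 after IRI and 29.92 without it. The Ct in HFD Rag1-/- liver was 30.32 after IRI and 30.48 without it. ND Rag1-/- liver had a Ct of 29.19 after IRI, against 35 without it. All 6 wells below the limit thus lay within 1.3 cycles, and the 2 at the limit were those of the pools with the most array genes at the limit. In all, 13 array genes were at the limit in both of these pools, and of these only Tnfsf11 and Il2, a T cell cytokine, were below it in all 6 others. Of all array wells below the limit, 7 had a Ct above 33, the highest 33.9.

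As levels, the 4 IRI pools had Tnfsf11 at -12.72 (ND Rag1-Tbet DKO), -13.38 (ND Rag1-/-), -14.26 (HFD Rag1-Tbet DKO) and -14.42 (HFD Rag1-/-). Without injury the level was -14.88 in ND Rag1-Tbet DKO and -15.26 in HFD Rag1-/- liver, and at most -19.42 in ND Rag1-/- and at most -19.50 in HFD Rag1-Tbet DKO liver. The IRI pools therefore did not overlap with the non-IRI pools, as was the case for 6 of 83 array genes, or 7.23%. The closest approach was 0.46 on the log2 scale, between HFD Rag1-/- IRI and ND Rag1-Tbet DKO non-IRI liver. This separation was also seen with Gapdh added to the references, with all 5 housekeeping genes and with the median array Ct, but not with Nodal, Il9 and Csf1 as references or with raw Ct. Of those references, Il9 and Csf1 were themselves among the 6 genes without overlap against Actb and Hsp90ab1.

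**Figure D1:**
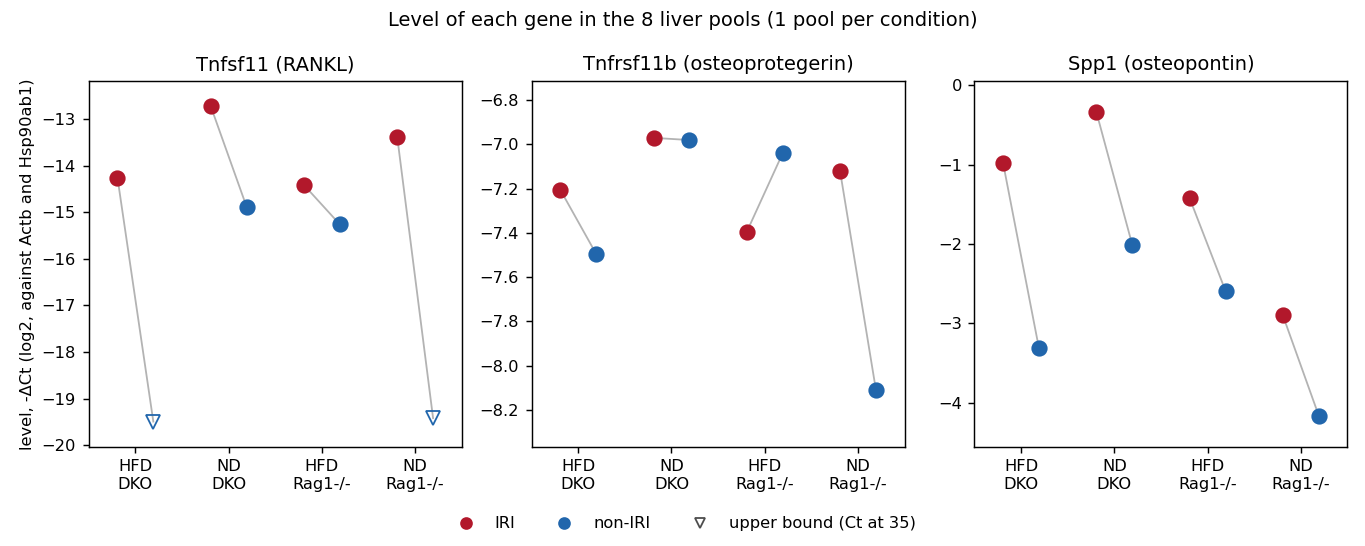
Level (-ΔCt, log2, against the mean Ct of Actb and Hsp90ab1) of Tnfsf11, Tnfrsf11b and Spp1 in the 8 liver pools, with IRI (red) left of non-IRI (blue) within each diet and genotype. Points are single wells of single pools with no error bar, and open triangles are upper bounds for wells at a Ct of 35. Tnfsf11 lies at -14.42 or above in the IRI pools and at -14.88 or below in the others, Tnfrsf11b spans only 1.14, and Spp1 is higher with IRI in each pair.

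The difference of Tnfsf11 after IRI was 3 times past 2-fold and once not. In HFD Rag1-Tbet DKO liver the IRI pool held at least 37.8-fold more (log2 at least 5.24, housekeeping SD 0.17), where 55.8% of array genes were 2-fold higher and 5.19% lower. ND Rag1-Tbet DKO liver had 4.47-fold more (log2 2.16, housekeeping SD 0.38), where 50% were higher and 11.2% lower. HFD Rag1-/- liver had a 1.80-fold difference (log2 0.84, housekeeping SD 0.31), below the threshold but above that SD, where 10.4% were higher and 15.6% lower. The ND Rag1-/- pool after IRI held at least 65.8-fold more (log2 at least 6.04, housekeeping SD 0.37), where 50.7% were higher and 5.33% lower. Tnfsf11 thus moved with a large share of the array in 3 of these comparisons. The 2 bounds passed 2-fold under all 8 reference choices tried, the ND Rag1-Tbet DKO value under 6 of 8 (0.74 to 2.42), and the HFD Rag1-/- value under 2 of 8 (-0.04 to 1.06).

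Tnfrsf11b, the decoy receptor, stayed within a narrow range. Its Ct was 22.87 after IRI and 23.00 without it in HFD Rag1-Tbet DKO liver, and 23.43 after IRI and 22.02 without it in ND Rag1-Tbet DKO liver. HFD Rag1-/- liver had 23.30 after IRI and 22.26 without it, and ND Rag1-/- liver had 22.93 after IRI and 23.69 without it. As levels, the IRI pools held -6.97 to -7.40, a span of 0.42 on the log2 scale or 1.34-fold. Non-IRI pools held -6.98 to -8.11, and the ND Rag1-/- non-IRI pool was alone at the lower end. Of the 7 gaps between neighbouring pools in the order of levels, only the last, 0.62 between HFD Rag1-Tbet DKO non-IRI and ND Rag1-/- non-IRI liver, was larger than the housekeeping SD of those pools (0.44). The whole span of 1.14 was the 7th narrowest of the 62 array genes below the limit in all pools, whose median span was 2.87.

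None of the 4 differences of Tnfrsf11b after IRI passed 2-fold. The log2 difference was 0.29 in HFD Rag1-Tbet DKO, 0.01 in ND Rag1-Tbet DKO and -0.36 in HFD Rag1-/- liver. It was 0.99, or 1.99-fold, in ND Rag1-/- liver, just inside the threshold and above the housekeeping SD of 0.37. In that comparison the hepatocyte markers were also higher, Hc by a log2 of 1.19 and Thpo by 0.65, which did not pass 2-fold. Their median was 0.92, beside 0.97 for all array genes, of which 50.7% were 2-fold higher. The summed level of Hc and Thpo was 1037 per 1000 of reference after IRI, against 457 without it. In the other 7 pools this sum was 645 to 1217. The part of hepatocyte RNA in the difference was not tested, and in bulk liver fewer cells of a type and less RNA per cell cannot be told apart. The direction of the Tnfrsf11b differences depended on the references. The difference in ND Rag1-/- liver was below 0 with the median array Ct (-0.27) and with Nodal, Il9 and Csf1 (-0.47).

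Since Tnfsf11 and Tnfrsf11b were read in the same cDNA, the difference of their Ct values within a pool needs no reference gene. It was 7.05 cycles in HFD Rag1-Tbet DKO liver after IRI, against at least 12 without it. In ND Rag1-Tbet DKO liver it was 5.75 cycles after IRI and 7.90 without it. HFD Rag1-/- liver had 7.02 cycles after IRI and 8.22 without it, and ND Rag1-/- liver 6.26 after IRI and at least 11.31 without it. The gap between the ligand and its decoy receptor was therefore narrower in every IRI pool (5.75 to 7.05) than in any non-IRI pool (7.90 or more). With Tnfrsf11b as the only reference, 3 of 82 array genes, or 3.66%, had all IRI pools above all non-IRI pools, and these were Tnfsf11, Ccl20 and Il2.

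The change of this gap after IRI was at most -4.95 cycles in HFD Rag1-Tbet DKO liver, that is at least 30.9-fold in favour of Tnfsf11, and -2.15 cycles, or 4.44-fold, in ND Rag1-Tbet DKO liver. It was -1.20 cycles, or 2.30-fold, in HFD Rag1-/- liver, and at most -5.05 cycles, or at least 33.1-fold, in ND Rag1-/- liver. Against Tnfrsf11b, the share of the other array genes at least 2-fold higher after IRI was 48.7% in HFD Rag1-Tbet DKO, 50.6% in ND Rag1-Tbet DKO, 22.4% in HFD Rag1-/- and 17.6% in ND Rag1-/- liver. Tnfsf10, the gene of TRAIL and the other osteoprotegerin ligand on the array, moved less against Tnfrsf11b after IRI. Its Ct was within 0.91 cycles of that of Tnfrsf11b in every pool, and its gap changed after IRI by 0.54 (HFD Rag1-Tbet DKO), 0.62 (ND Rag1-Tbet DKO), 0.51 (HFD Rag1-/-) and -0.72 cycles (ND Rag1-/-), each less than 2-fold. Between diets in Rag1-/- non-IRI liver its gap did pass 2-fold, at -0.61 cycles on HFD and 0.73 on ND, a change of -1.34 cycles or 2.53-fold.

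**Figure D2:**
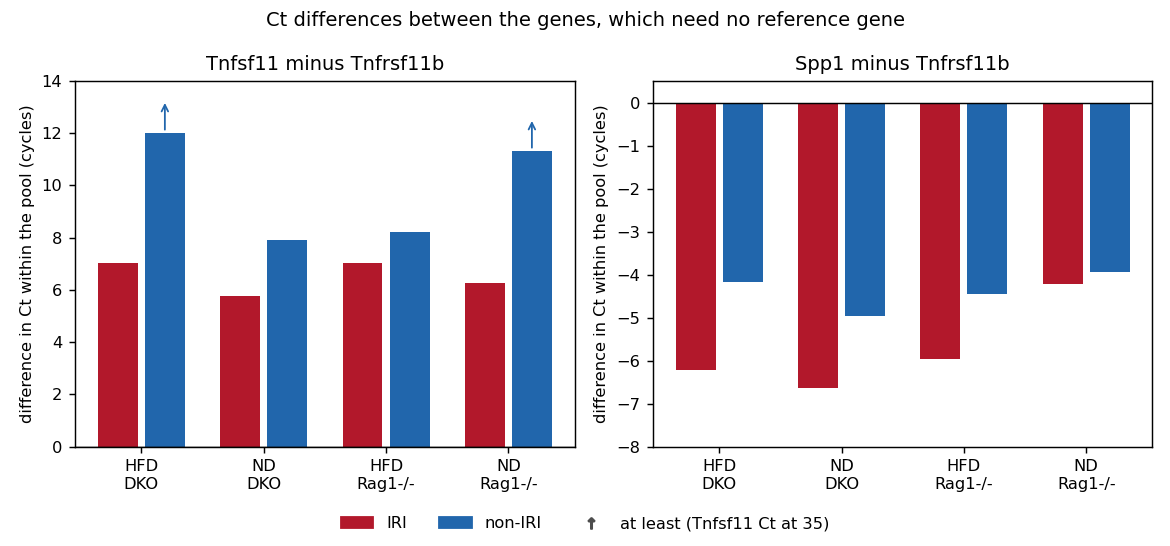
Difference in Ct within each pool (cycles) of Tnfsf11 minus Tnfrsf11b (left) and Spp1 minus Tnfrsf11b (right), with IRI (red) left of non-IRI (blue). Bars are single pools, and arrows mark values that are lower bounds. The left bars are 5.75 to 7.05 with IRI and 7.90 or more without it, and on the right Spp1 leads Tnfrsf11b by more cycles with IRI in each pair.

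Spp1 was higher after IRI in every comparison. Its Ct was 16.65 after IRI and 18.82 without it in HFD Rag1-Tbet DKO liver, and 16.80 after IRI and 17.05 without it in ND Rag1-Tbet DKO liver. For HFD Rag1-/- liver it was 17.33 after IRI and 17.81 without it. ND Rag1-/- liver had 18.71 after IRI and 19.74 without it. As levels, the IRI pools were at -0.34 (ND Rag1-Tbet DKO), -0.98 (HFD Rag1-Tbet DKO), -1.43 (HFD Rag1-/-) and -2.90 (ND Rag1-/-). The non-IRI pools were at -2.01 (ND Rag1-Tbet DKO), -2.59 (HFD Rag1-/-), -3.31 (HFD Rag1-Tbet DKO) and -4.16 (ND Rag1-/-). The groups overlapped, since ND Rag1-/- liver after IRI was below 2 of the non-IRI pools. All 7 gaps between neighbouring pools exceeded the housekeeping SD of those pools, and the whole span was 14.1-fold.

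The difference after IRI was 5.03-fold in HFD Rag1-Tbet DKO liver (log2 2.33), 3.18-fold in ND Rag1-Tbet DKO liver (log2 1.67), 2.24-fold in HFD Rag1-/- liver (log2 1.17) and 2.40-fold in ND Rag1-/- liver (log2 1.26). Each was above the housekeeping SD of its comparison, the largest of which was 0.38. Of 71 array genes with a value in all 4 comparisons, 2 were at least 2-fold higher in each, Spp1 and Csf2, a share of 2.82%. Csf2, the gene of GM-CSF, is named here after its values were seen. Among measured genes Spp1 was the 6th highest of 75 in HFD Rag1-/- liver, but only the 19th of 67 in HFD Rag1-Tbet DKO, the 27th of 74 in ND Rag1-Tbet DKO and the 23rd of 68 in ND Rag1-/- liver. The median difference of all array genes was 0.94, 1.05, -0.17 and 0.97 in HFD Rag1-Tbet DKO, ND Rag1-Tbet DKO, HFD Rag1-/- and ND Rag1-/- liver.

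Over 8 reference choices the Spp1 difference kept past 2-fold in all 8 only in HFD Rag1-Tbet DKO liver (1.02 to 2.51). It passed in 6 of 8 in ND Rag1-Tbet DKO (0.25 to 1.93), in 5 of 8 in HFD Rag1-/- (0.28 to 1.38) and in 5 of 8 in ND Rag1-/- liver (-0.20 to 1.31). The Ct of Spp1 minus that of Tnfrsf11b was -6.22 cycles after IRI and -4.18 without it in HFD Rag1-Tbet DKO liver, a change of -2.04 cycles. For ND Rag1-Tbet DKO liver it was -6.63 after IRI and -4.97 without it, a change of -1.66. HFD Rag1-/- liver had -5.97 after IRI and -4.45 without it, a change of -1.52. The change was only -0.27 cycles, or 1.21-fold, for ND Rag1-/- liver (-4.22 after IRI, -3.95 without it).

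**Figure D3:**
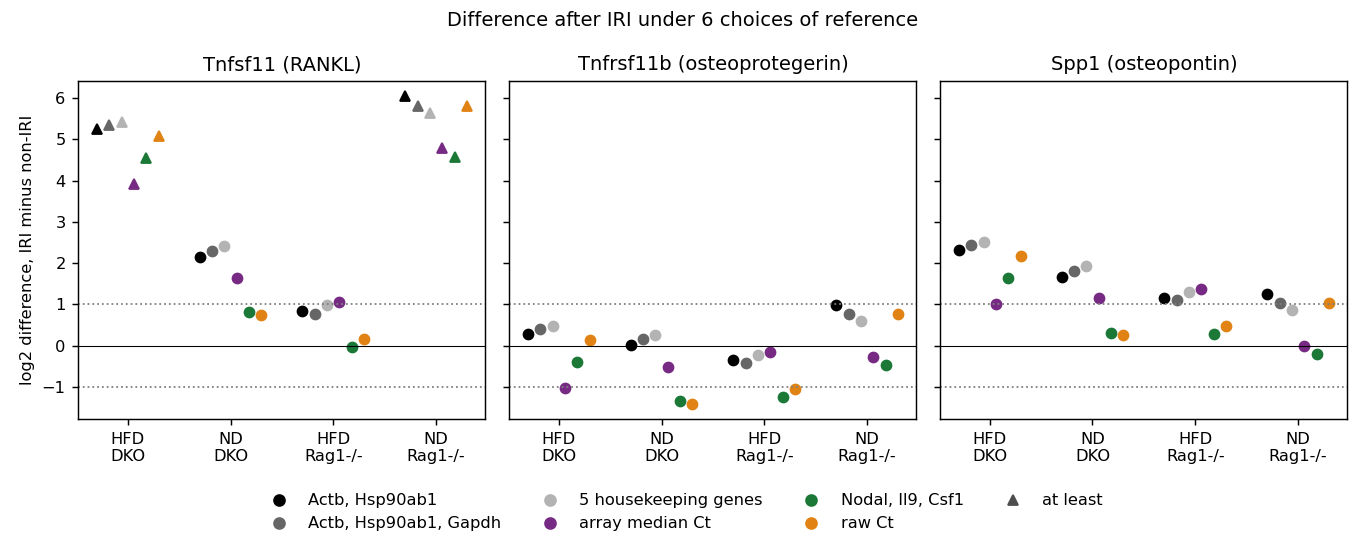
Log2 difference, IRI minus non-IRI, of the 3 genes in each diet and genotype under 6 choices of reference (colours), with triangles for lower bounds and dotted lines at 2-fold. The Tnfsf11 bounds stay at 3.93 or above, Tnfrsf11b lies between -1.41 and 0.99, and Spp1 between -0.20 and 2.51.

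Markers of macrophages and platelets were higher in the same comparisons as Spp1 in Rag1-Tbet DKO liver. Of the 5 macrophage-associated genes (Il1b, Tnf, Ccl3, Ccl4 and Il10), all 5 were 2-fold higher after IRI in Rag1-Tbet DKO liver on either diet, where 55.8% (HFD) and 50% (ND) of all array genes were. In Rag1-/- liver 0 were higher on HFD and 3 on ND, beside 10.4% and 50.7% of the array. Their summed level per 1000 of reference was 33 after IRI and 9.37 without it in HFD Rag1-Tbet DKO liver, and 52.6 after IRI and 18.4 without it in ND Rag1-Tbet DKO liver. In Rag1-/- liver, where Spp1 was also higher after IRI, the sum was lower, at 11.4 after IRI and 12.2 without it on HFD and at 6.92 after IRI and 11.1 without it on ND. Of the 5 genes only Il1b was lower there, by a log2 of -0.335 on HFD and -0.93 on ND. The median log2 difference of the 5 was 0.475 on HFD and 1.36 on ND, beside -0.165 and 0.97 for all array genes. None of the 5 was at the limit in any pool. The platelet genes Pf4 and Ppbp were both at least 2-fold higher after IRI in HFD and ND Rag1-Tbet DKO liver. In Rag1-/- liver both were higher but neither passed 2-fold, with log2 differences of 0.525 and 0.375 on HFD and 0.98 and 0.84 on ND. Their summed levels were 2.37 to 17.5 in IRI and 1.26 to 5.36 in non-IRI pools. The 4 T cell genes (Cd40lg, Il2, Il4 and Il17a) summed to at most 0.271 per 1000 of reference in every pool other than ND Rag1-Tbet DKO non-IRI, whose Cd40lg well is described above, and 1 to 3 of them were at the limit in each of those 7 pools. The part of these cells in the differences of Tnfsf11 and Spp1 was not tested.

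In uninjured liver, Tnfsf11 and Spp1 differed with diet in opposite directions in the 2 genotypes. In Rag1-Tbet DKO non-IRI liver, Tnfsf11 was at the limit on HFD, at least 24.5-fold lower than on ND (log2 at most -4.62), where 29.1% of array genes were 2-fold lower and 6.33% higher. Spp1 was 2.47-fold lower there (log2 -1.30), and Tnfrsf11b had a log2 difference of -0.52. In Rag1-/- non-IRI liver, Tnfsf11 was at least 17.9-fold higher on HFD (log2 at least 4.16), where 71.4% of array genes were 2-fold higher. Spp1 was 2.97-fold higher (log2 1.57) and Tnfrsf11b 2.10-fold higher (log2 1.07), while the median of all array genes was 1.41. With the median array Ct as reference, the Spp1 and Tnfrsf11b differences in Rag1-/- non-IRI liver turned to -0.35 and -0.85. That of Spp1 in Rag1-Tbet DKO non-IRI liver was then -0.21, so the Spp1 directions were no longer opposite. The Tnfsf11 bounds kept their direction and passed 2-fold under all 8 reference choices.

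In the same Rag1-/- non-IRI comparison, all 4 genes of the group 1 ILC and NK list were 2-fold higher on HFD, Xcl1 by 4.35, Ifng by 2.53, Ccl5 by 2.5 and Fasl by 1.97 on the log2 scale. The platelet genes Ppbp (2.6) and Pf4 (1.18) and the hepatocyte genes Hc (1.06) and Thpo (1.04) were also higher. Of the 5 macrophage-associated genes, 4 were 2-fold higher and 0 lower. Among all array genes 71.4% were 2-fold higher, with a median log2 difference of 1.41 over those measured. The group 1 list had a median of 2.515, while Pf4, Hc and Thpo lay below the array median. Summed levels per 1000 of reference were 12.7 on HFD and 1.63 on ND for the group 1 list. The part of these cells in the diet differences was not tested.

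After IRI the effect of diet on Tnfsf11 was smaller and ran the same way in both genotypes. HFD pools had less Tnfsf11 than ND pools, 2.90-fold in Rag1-Tbet DKO liver (log2 -1.53, housekeeping SD 0.34), where 22.5% of array genes were 2-fold lower, and 2.05-fold in Rag1-/- liver (log2 -1.03, housekeeping SD 0.11), where 11.7% were. Each of these was lost under 1 of 8 reference choices, the first at -0.74 with raw Ct and the second at -0.97 with Hsp90ab1 alone. Against Tnfrsf11b, the gap was 1.3 cycles wider on HFD in Rag1-Tbet DKO liver and 0.76 cycles wider in Rag1-/- liver. Tnfrsf11b itself differed by -0.23 and -0.27 on the log2 scale in Rag1-Tbet DKO and Rag1-/- IRI liver. Spp1 was 2.78-fold higher on HFD in Rag1-/- IRI liver (log2 1.48), where 28.6% were higher, and this held under all 8 reference choices (1.02 to 1.54). In Rag1-Tbet DKO IRI liver the Spp1 difference was -0.65 and did not pass 2-fold, where 22.5% of array genes were lower and 8.75% higher.

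Loss of T-bet was followed at each diet and injury state. In HFD non-IRI liver, Tnfsf11 was at least 18.8-fold lower in Rag1-Tbet DKO than in Rag1-/- mice (log2 at most -4.24), where 54.5% of array genes were 2-fold lower. In ND non-IRI liver it was at least 23.3-fold higher (log2 at least 4.54), where 45.6% were higher and 8.86% lower. Tnfrsf11b differed by -0.46 in HFD non-IRI and by 1.13, or 2.19-fold, in ND non-IRI liver. Spp1 differed by -0.72 in HFD non-IRI liver and was 4.44-fold higher in ND non-IRI liver (log2 2.15). The genes typical of group 1 ILCs and NK cells (Ifng, Xcl1, Fasl and Ccl5) were all 4 lower in Rag1-Tbet DKO liver in HFD non-IRI mice, with log2 differences between -1.77 and -3.92 and a median of -3.45, beside -0.96 for all array genes. Their summed level there was 1.26 per 1000 of reference in Rag1-Tbet DKO and 12.7 in Rag1-/- liver. In ND non-IRI liver 2 were higher (Ifng and Xcl1) and 1 lower (Fasl), with sums of 2.41 and 1.63 in Rag1-Tbet DKO and Rag1-/- mice. None was at the limit in any pool, and the part of these cells in the genotype differences was not tested. The ND values rest on the Rag1-Tbet DKO pool with the Cd40lg and Il3 wells described above and on the Rag1-/- pool with the second highest number of genes at the limit.

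After IRI, Tnfsf11 and Tnfrsf11b differed little between the genotypes. Tnfsf11 was 0.16 higher on HFD and 0.66 higher on ND in Rag1-Tbet DKO liver on the log2 scale, and Tnfrsf11b was 0.19 and 0.15 higher. Their gap changed by 0.03 cycles on HFD and by -0.51 cycles on ND. None of these passed 2-fold, where 30.8% of array genes on HFD and 42.5% on ND were 2-fold higher in Rag1-Tbet DKO liver. Spp1 differed by 0.44 on HFD, or 1.36-fold. On ND it was 5.90-fold higher in Rag1-Tbet DKO than in Rag1-/- IRI liver (log2 2.56, housekeeping SD 0.31), and it passed 2-fold under all 8 reference choices (1.78 to 2.81). In the same ND IRI comparison, the summed macrophage genes were 52.6 per 1000 of reference in Rag1-Tbet DKO and 6.92 in Rag1-/- liver, and the platelet genes 17.5 and 2.37. Of the 5 macrophage genes 4 were 2-fold higher and 1, Il10, lower (log2 -1.03), where 42.5% of array genes were higher and 8.75% lower. By CD68 staining, the paper reports a similar influx of macrophages in all groups of these genotypes after IRI. The sum is one of transcripts and not a count of cells. The summed group 1 ILC and NK genes were 3.27 in Rag1-Tbet DKO and 2.74 in Rag1-/- liver on ND, and 2.53 and 5.38 on HFD. On ND only Xcl1 was higher in Rag1-Tbet DKO liver (log2 1.74), while Ifng (-0.17), Ccl5 (-0.46) and Fasl (-1.19) were lower. The median of the list was -0.315 on ND, beside 0.41 for all array genes, and -1.01 on HFD, beside 0.11.

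**Figure D4:**
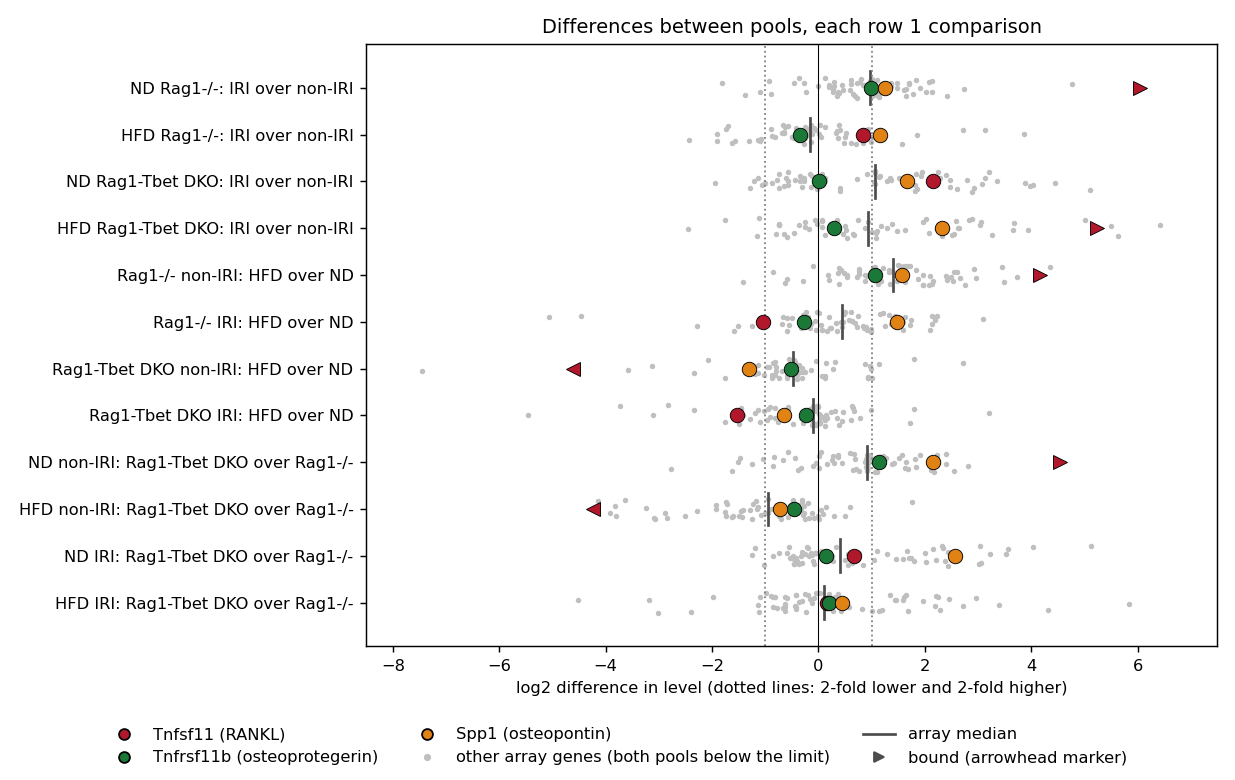
Log2 difference in level in the 12 comparisons between pools, each row naming the pool on top first. Coloured points are Tnfsf11, Tnfrsf11b and Spp1 (arrowheads are bounds), grey points the other array genes below the limit in both pools, and dark ticks the median of the measured array genes. Tnfsf11 has the 6 bounds, positive in 4 comparisons and negative in 2, while Tnfrsf11b stays within 1.13 of 0 throughout.

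Counting all 12 comparisons, Tnfsf11 was past 2-fold upward in 3 for injury, 1 for diet and 1 for genotype, and downward in 3 for diet and 1 for genotype. Tnfrsf11b was past it upward in 1 for diet and 1 for genotype and never downward. Spp1 was past it upward in 4 for injury, 2 for diet and 2 for genotype, and downward in 1 for diet. Each pool enters 3 of the 12 comparisons, so these counts are not independent of each other.

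Other cytokines of the RANKL system were taken as lists. Of 9 cytokines that raise RANKL or support osteoclast formation in bone (Csf1, Il1a, Il1b, Il6, Il11, Il17a, Lif, Osm and Tnf), those with a value were 2-fold higher after IRI in 7 of 8 in HFD Rag1-Tbet DKO, 7 of 9 in ND Rag1-Tbet DKO, 2 of 8 in HFD Rag1-/- and 1 of 8 in ND Rag1-/- liver, where 1 was lower. The shares of all array genes that were higher were 55.8%, 50%, 10.4% and 50.7% in the same order. The median log2 differences of the measured members were 2.23, 1.33, 0.11 and 0.33, beside the array medians given above, and with bounds counted at their bound 2.37, 1.37, 0.11 and 0.33, beside 1.18, 0.98, -0.19 and 1.00 for all array genes. In HFD Rag1-Tbet DKO liver Il11 was higher by a log2 of at least 7.15 and Osm by 5.49. Osm and Il11, gp130 cytokines that act on osteoblasts, differed by at least 10.58 and by 4.04 in ND Rag1-Tbet DKO liver, where the well of Osm at the limit was that of the non-IRI pool with the Cd40lg and Il3 wells. Those of HFD Rag1-/- liver with the largest differences were the same, Il11 at 1.57 and Osm at 1.16. In ND Rag1-/- liver Tnf was higher by 1.36 and Lif, also a gp130 cytokine, lower (log2 -1.38).

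Between genotypes after IRI, 4 of 8 of these cytokines on HFD and 7 of 9 on ND were 2-fold higher in Rag1-Tbet DKO than in Rag1-/- liver, and 0 were lower in either, beside 30.8% and 42.5% of all array genes that were higher. Tnfsf11 itself did not pass 2-fold in these comparisons, as given above. Of 4 cytokines that oppose osteoclast formation (Ifng, Il4, Il10 and Il13), 2 of 3 in HFD Rag1-Tbet DKO, 3 of 4 in ND Rag1-Tbet DKO, 0 of 4 in HFD Rag1-/- and 2 of 4 in ND Rag1-/- liver were higher after IRI, and 0 were lower, beside the array shares just given for injury. The 9 TNF superfamily ligands, Tnfsf11 included, were higher in 5 of 8 (1 lower), 4 of 8 (1 lower), 0 of 8 (1 lower) and 7 of 9 (0 lower) with a value, in the same order of conditions, beside the same array shares. The medians over measured ligands, which leave out the Tnfsf11 bounds, were 1.06, 1.35, -0.08 and 1.37, and with bounds counted at their bound 1.71, 1.13, -0.21 and 1.70. Tnfsf10 was 2-fold higher only in ND Rag1-/- liver (log2 1.71) among the 4 comparisons after IRI. Its other differences after IRI were -0.25 in HFD Rag1-Tbet DKO, -0.61 in ND Rag1-Tbet DKO and -0.86 in HFD Rag1-/- liver.

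The array genes whose level followed each of the 3 most closely over the pools were taken by Pearson's r, given as a description over points that share reference wells. For Spp1, over 8 pools and among 61 genes, they were Il1rn (r = 0.928, Spearman's rho = 0.976), the antagonist of the IL-1 receptor, and the platelet chemokines Pf4 (r = 0.922, rho = 0.905) and Ppbp (r = 0.917, rho = 0.929). With the median array Ct as reference the same 3 were closest (r = 0.779, 0.875 and 0.752). Tnfrsf11b was followed by the hepatocyte products Hc (r = 0.956, rho = 0.738) and Thpo (r = 0.895, rho = 0.881), and by Il7 (r = 0.875, rho = 0.738). Under the median array Ct, Thpo (r = 0.970) and Hc (r = 0.946) remained among the closest 3 and Il7 (r = 0.122) was 34th. For Tnfsf11, over the 6 pools below the limit and among 62 genes, they were the neutrophil chemokine Cxcl1 (r = 0.928, rho = 0.886), Il9 (r = 0.863, rho = 0.886) and Il17f (r = 0.745, rho = 0.714), and the same 3 under the median array Ct (r = 0.954, 0.892 and 0.767).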

How the data were processed

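RNA of at least 3 livers per condition was pooled, 1.25 µg was reverse transcribed, and 1 well per gene was run for 40 cycles with SYBR Green by the authors, who used the GeneGlobe web tool. The authors deposited Ct values, a normalized ratio (2 to the power of -ΔCt) whose reference genes differ between the genotypes, and a table of their own fold comparisons, which was not used. The 8 pools were mapped from the labels. No depth exists for Ct values, and 1 well per gene limits their precision.

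Levels were -ΔCt relative to Actb and Hsp90ab1 (mean Ct), which the methods name for clustering the pools, and the log2 difference as -ΔΔCt. The paper clustered its IRI and non-IRI pools apart from each other, in view of changes in housekeeping Ct after surgery. Here the pair was used across both. Its fold values after IRI used Actb, Hsp90ab1 and Gapdh in Rag1-/- mice. In Rag1-Tbet DKO mice they used Nodal, Il9 and Csf1. Genes at a Ct of 35 in both pools had no value. Differences were computed for 12 comparisons, with the share of the 84 array genes past 2-fold as background. The genes, lists and comparisons were chosen with earlier results of these data known. The text names the 3 genes, the housekeeping genes, up to 2 list members at each end per comparison and the 3 genes most like each. Alternatives were other references, a Ct limit of 32, a 3-fold threshold, the deposited ratios within a genotype and leaving out the ND Rag1-Tbet DKO non-IRI pool, chosen after seeing the data. Of 89 RefSeq identifiers, 88 matched GRCm38.p6, all with the same symbol. The arithmetic was checked on Ct values shifted by known amounts without added noise, which does not test the error of single wells. Scripts ran under Python 3.11.15 with pandas 2.3.3 and numpy 2.4.6, and figures were drawn with matplotlib 3.10.9.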

Additional observations from a re-analysis of the deposited data

Results flagged for a closer look

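In uninjured liver, Tnfsf11 was lower on HFD in Rag1-Tbet DKO mice (log2 at most -4.62) and higher on HFD in Rag1-/- mice (log2 at least 4.16). The same 4 pools read between genotypes gave a lower level in Rag1-Tbet DKO mice on HFD (log2 at most -4.24) and a higher one on ND (log2 at least 4.54). Spp1 was lower on HFD in Rag1-Tbet DKO non-IRI liver (log2 -1.3) and higher on HFD in Rag1-/- non-IRI liver (log2 1.57). With the median array Ct these 2 Spp1 values were -0.21 and -0.35, in the same direction and neither past 2-fold. In the 2 diet comparisons, 29.1% of array genes were 2-fold lower and 71.4% higher. The results were picked out because the single pools moved in opposite directions past 2-fold against Actb and Hsp90ab1. The difference between the effects was not tested, since each condition was 1 pool. The Tnfsf11 values rest on 2 wells at the Ct limit, in HFD Rag1-Tbet DKO and ND Rag1-/- non-IRI liver, the pools in which 17 and 15 array genes were at the limit, and the part of detection in the pattern was not tested.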

How the results depend on the processing

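No replicate block was fitted, since each condition was 1 pool, and IRI and non-IRI pools were compared within each diet and genotype without a test. Each gene had 1 well per pool, and a bound moves with the Ct limit. Of 36 differences, 36 moved by less than the housekeeping SD with Gapdh added to the references, 24 with all 5 housekeeping genes, 33 with Actb or Hsp90ab1 alone, 18 with raw Ct, 9 with the median array Ct and 9 with Nodal, Il9 and Csf1. With a Ct limit of 32 it was 30, and the 6 that moved further were the Tnfsf11 bounds, which became smaller. The direction turned for Tnfrsf11b (-0.85) and Spp1 (-0.35) on HFD in Rag1-/- non-IRI liver and for Tnfrsf11b between genotypes in ND non-IRI liver (-0.40) with the median array Ct, and for Spp1 after IRI in ND Rag1-/- liver with Nodal, Il9 and Csf1 (-0.20). The cause was not tested.

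Changes of more than 1.5 times in the counts of comparisons past 2-fold come first. The upward counts of Tnfrsf11b for diet and for genotype were each 0 with Gapdh added, with all 5 housekeeping genes, with Nodal, Il9 and Csf1 and at 3-fold, and the diet count was also 0 with the median array Ct, with Hsp90ab1 alone and with the deposited ratios. Tnfrsf11b after IRI was lower in 1 comparison with the median array Ct and with the deposited ratios, lower in 2 with Nodal, Il9 and Csf1 and with raw Ct, and higher in 1 with Hsp90ab1 alone. Spp1 after IRI was higher in 2 comparisons with raw Ct and at 3-fold and in 1 with Nodal, Il9 and Csf1. For diet, Spp1 was higher in 1 with the median array Ct and with Nodal, Il9 and Csf1 and in 0 at 3-fold, and lower in 0 with the median array Ct and at 3-fold. Between genotypes Spp1 was higher in 1 with the median array Ct and lower in 1 with raw Ct. Tnfsf11 was lower on HFD in 1 comparison at 3-fold. Without the ND Rag1-Tbet DKO non-IRI pool, between genotypes Tnfsf11 and Tnfrsf11b were higher in 0 comparisons and Spp1 in 1, and for diet Spp1 was lower in 0. Smaller changes touched 3 counts. Tnfsf11 after IRI was higher in 4 comparisons with the median array Ct and with Hsp90ab1 alone, and in 2 with Nodal, Il9 and Csf1, with raw Ct, with the deposited ratios and without that pool, against 3. Tnfsf11 on HFD was lower in 2 with raw Ct, with Hsp90ab1 alone and without that pool, against 3. Spp1 after IRI was higher in 3 with all 5 housekeeping genes, with the median array Ct, with Actb alone, with the deposited ratios and without that pool, against 4. With the median array Ct the 1 upward genotype comparison of Tnfrsf11b was that in HFD non-IRI liver in place of ND non-IRI liver.

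The Ct gap of Tnfsf11 to Tnfrsf11b in non-IRI liver was at least 9 in HFD Rag1-Tbet DKO and at least 8.31 in ND Rag1-/- mice with a Ct limit of 32, and at least 10.91 in ND Rag1-/- mice with the deposited ratios, which are rounded. The split of array genes past 2-fold depended on the reference. With the median array Ct, higher and lower counts after IRI were 28 and 24 in HFD Rag1-Tbet DKO liver, against 43 and 4 with Actb and Hsp90ab1. For ND Rag1-Tbet DKO liver they were 30 and 18, against 40 and 9, for HFD Rag1-/- liver 16 and 9, against 8 and 12, and for ND Rag1-/- liver 9 and 14, against 38 and 4. For HFD over ND they were 18 and 13, against 5 and 23 (Rag1-Tbet DKO non-IRI), 9 and 13, against 7 and 18 (Rag1-Tbet DKO IRI), 11 and 22, against 55 and 1 (Rag1-/- non-IRI), and 15 and 14, against 22 and 9 (Rag1-/- IRI). Between genotypes they were 25 and 18, against 1 and 42 (HFD non-IRI), 10 and 26, against 36 and 7 (ND non-IRI), and 25 and 24, against 34 and 7 (ND IRI).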
